A study of Arabidopsis thaliana with 32 samples.

Results

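The 41 histone loci of Arabidopsis thaliana described here comprise 8 genes for H4, 5 for H3.1, 3 for H3.3, 4 for the canonical H2A, 2 for H2A.X, 3 for H2A.W, 3 for H2A.Z, 10 for H2B and 3 for the linker histone H1. They were taken by their locus identifiers from 28394 gene identifiers in the tables, and 40 of the 41 were listed. The H2B locus AT5G02570 was not listed. It lies on the opposite strand inside HTA12 (AT5G02560), with 522 bases in common, so the values of HTA12 may hold reads of both. RNA of the monosome fraction, bound to a single ribosome, and of the polysome fraction, bound to several, was sequenced from 10-day-old whole seedlings in 32 libraries. Wild type Col-0 given 50 µM antimycin A (AA, an inhibitor of mitochondrial electron transport), 2OX, the sextuple mutant and Col-0 given DMSO had 3 replicates, and Col-0 without either treatment had 4. AA lasted 5 h by the labels and a shorter time by the methods. The methods describe an overnight transfer to shaken liquid medium in the dark before AA or DMSO. 2OX is 1 line that expresses MCU2-YFP, a mitochondrial calcium uniporter, from the 35S promoter. The sextuple mutant carries lesions in all MCU genes and keeps residual MCU transcripts. Each of the 3 comparisons used 3 libraries per group and fraction, and Col-0 libraries were shared by the 2OX and sextuple comparisons.

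Nucleosomes hold H2A, H2B, H3 and H4, and H1 binds the linker DNA between them. H3.1 and H4 genes are expressed mostly in S phase, when new DNA is packaged, whereas H3.3 is made throughout the cell cycle and is placed at transcribed genes. H2A.X marks DNA breaks when phosphorylated, H2A.W packs heterochromatin, H2A.Z sits at the first nucleosomes of genes, and plant histone mRNAs, unlike most of their animal counterparts, carry poly(A) tails.

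Reads can be told apart between most of these loci because identical proteins are encoded by different codons. All 5 H3.1 genes encode the same protein, while their coding sequences are 80.3% to 89.5% identical; all 8 H4 genes also encode the same protein, from coding sequences 78.8% to 98.1% identical. The H3.3 proteins differ from H3.1 at residues 31, 41, 87 and 90, counted after the first methionine. Codons 84 to 93, which hold the last 2 of these differences, are shown for the H3 loci from the TAIR10.1 assembly of RefSeq, 5′ to 3′ on the coding strand. Capitals mark bases that differ from AT1G09200.
AT1G09200 (H3.1): ttccagagcagtgccgtcgccgctcttcag
AT3G27360 (H3.1): ttTcagagTagtgcAgtcgcAgctcttcaA
AT5G10390 (H3.1): ttTcagagcagtgcTgtTgcTgctTtAcaA
AT5G10400 (H3.1): ttccagagcagtgccgtcgcAgctcttcag
AT5G65360 (H3.1): ttccagagcagCgccgtcgcAgcActtcag
AT4G40030 (H3.3): ttccagagcCAtgcTgtcTTAgctctCcag
AT4G40040 (H3.3): ttccagagcCAtgcTgtGCTTgcActCcag
AT5G10980 (H3.3): ttTcagagTCACgcGgtGTTAgctcttcaA
Stretches of 50 bases shared exactly with another gene made up 35.6% of the transcript of AT3G27360, 28.5% of AT1G07660, 22.2% of AT1G07820, 25.7% of AT3G45930 and 27.9% of AT3G46320, and the values of these loci are uncertain to that extent. The share was 15.7% for GAMMA-H2AX (AT1G54690), 11.1% for HTA13, 8.94% for AT5G59970, 8.48% for AT5G59690 and 4.81% for HTA10. It was 0% for AT1G09200, AT5G65360, HTA6, HTA11 and all 3 H3.3 genes.

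Values are read numbers per gene that the authors scaled by library size, table by table, and depth in reads is unknown. A rise or fall is therefore relative to the other genes of a fraction and is not a change in total amount. The paper reports that AA significantly moved RNA from polysomes to monosomes, and values scaled in this way do not show such a move. Of the sum of a library's values, genes annotated as ribosomal RNA together with AT3G06365 held 15.5% to 63.4%. Outside these, histones held 0.486% to 0.571% of the sum in AA polysomes and 0.542% to 0.614% in DMSO polysomes. In monosomes they held 0.313% to 0.340% in AA and 0.257% to 0.304% in DMSO. MCU2 (AT1G57610) averaged 885 in 2OX polysomes and 213 in Col-0 polysomes (log2 change 2.04, adjusted p = 3e-05, limma). AOX1A, the alternative oxidase and a marker of mitochondrial stress, rose in polysomes after AA (log2 change 0.86, adjusted p = 0.00436). In the sextuple mutant, no gene of the check list that holds MCU2 passed the adjustment in limma. The 6 tested in polysomes had a median log2 change of -0.50, with 3 at an unadjusted p under 0.05. The 5 tested in monosomes had a median of -0.60, with 4 at an unadjusted p under 0.05. Leaf, root and meristem markers were all listed in these whole-seedling libraries. In such mixed tissue, fewer dividing cells and less histone RNA per cell cannot be told apart. The labels do not say that replicates were separate cultures, so p-values measure the spread between these samples. AA polysome replicate 3 stood apart from the other AA polysome libraries for several histones, for example HTA12 at 341, against 1076 and 813.

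After AA, 4 of 13 H3.1 and H4 genes fell in polysomes and 7 of the 13 rose in monosomes. All 3 H3.3 genes rose in monosomes and none was called in polysomes. Of all genes tested, 10.4% fell in polysomes and 11.6% rose in monosomes, and a difference between the classes was not tested. In polysomes, 6 of the 40 histone genes tested fell and 1 rose. The genes that fell were the H4 genes AT5G59690 and AT5G59970, the H3.1 genes AT5G10400 and AT5G65360, the canonical H2A gene HTA10 and the H2A.Z gene HTA11, and the gene that rose was the H1 gene HIS1-3. Of all 20614 genes tested, 10.4% fell and 8.48% rose, against 15.0% of histone genes that fell. Histones are highly expressed, so genes were also ranked by mean value and split into 10 equal bins. In the 3 highest bins, 5 of 31 histone genes fell (16.1%), against 6.31% of genes, and 0 rose, against 11.1% of genes. The median log2 change of the histones was -0.13, and that of all genes 0.01.

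HTA11 (AT3G54560), one of the 3 genes for H2A.Z, changed most. It had 487, 606 and 438 in AA polysomes, against 1285, 1295 and 1295 in DMSO polysomes, a 2.55-fold fall (log2 change -1.35 ± 0.17 SE, adjusted p = 0.000253). The DMSO libraries lay within a few units of each other, and all AA libraries were far below them. In monosomes HTA11 had 1367, 1540 and 1016 in AA and 859, 1219 and 950 in DMSO, and the groups overlapped (log2 change 0.37, adjusted p = 0.14). HTA9 (AT1G52740) averaged 4186 ± 1458 in AA polysomes and 3250 ± 387 in DMSO polysomes (SD, n = 3 each; log2 change 0.32, adjusted p = 0.338). HTA8 (AT2G38810) had 815, 803 and 954 in AA polysomes and 1139, 1198 and 980 in DMSO polysomes (log2 change -0.37, adjusted p = 0.139). Every AA library of HTA8 was below every DMSO library, but the change did not pass the adjustment. With 3 libraries per group such separation can arise by chance, here and in the genes below. Its share over all genes was not counted. Per kilobase of transcript, HTA11 made up 10.4%, 12.2% and 5.96% of the H2A.Z transcripts in AA polysomes, against 23.0%, 22.4% and 21.2% in DMSO polysomes. In monosomes the shares overlapped, at 16.5% to 20.8% in AA and 18.7% to 21.2% in DMSO.

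Among H4 genes, which all encode one protein, 2 of 8 fell in polysomes. AT5G59690, with the highest values of the class, had 2506, 2899 and 1897 in AA polysomes and 4097, 3969 and 4668 in DMSO polysomes (1.77-fold lower, log2 change -0.82 ± 0.18 SE, adjusted p = 0.00699). AT5G59970 had 617, 682 and 657 in AA and 1015, 1202 and 1323 in DMSO (1.80-fold lower, log2 change -0.85 ± 0.16 SE, adjusted p = 0.00363). In both genes every AA library was below every DMSO library. Of the other 6, 5 had log2 changes from -0.64 to -0.13, with groups that overlapped, and AT1G07660 had 0.12.

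Among H3.1 genes, 2 of 5 fell in polysomes. AT5G65360 had 3594, 4461 and 2872 in AA polysomes and 5274, 5504 and 5970 in DMSO polysomes (log2 change -0.64 ± 0.17 SE, adjusted p = 0.0249). AT5G10400 had 1046, 1130 and 971 in AA and 1402, 1648 and 1858 in DMSO (log2 change -0.63 ± 0.16 SE, adjusted p = 0.017). AT1G09200, the H3.1 gene with the highest values, also had no AA library above a DMSO library, with 5440, 5869 and 4448 in AA and 6031, 7060 and 7361 in DMSO, but did not pass the adjustment (log2 change -0.38 ± 0.16 SE, adjusted p = 0.125). AT5G10390, which lies 577 bases from AT5G10400 on the same strand, had a log2 change of -0.42 (adjusted p = 0.132), and AT3G27360, the lowest of the 5, had -0.14 (adjusted p = 0.768).

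The H3.3 genes AT4G40030, AT4G40040 and AT5G10980 did not fall in polysomes. AT4G40030 had 26449, 30102 and 28833 in AA polysomes and 26726, 28636 and 25895 in DMSO polysomes (log2 change 0.07 ± 0.16 SE, adjusted p = 0.799). AT4G40040, which lies 42 bases from it, had a log2 change of 0.13 (adjusted p = 0.62). AT5G10980 had 20174, 22576 and 18642 in AA, all above the 16101, 15930 and 16145 in DMSO, yet did not pass the adjustment (log2 change 0.35, adjusted p = 0.144). The summed level of H3.1 transcripts per kilobase, relative to that of H3.3, was 0.195, 0.200 and 0.157 in AA polysomes and 0.266, 0.287 and 0.315 in DMSO polysomes. In monosomes it was 0.229, 0.216 and 0.210 in AA and 0.184, 0.208 and 0.206 in DMSO. The ratio was thus lower in every AA polysome library and slightly higher in every AA monosome library than in any DMSO library of the same fraction.

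**Figure D1:**
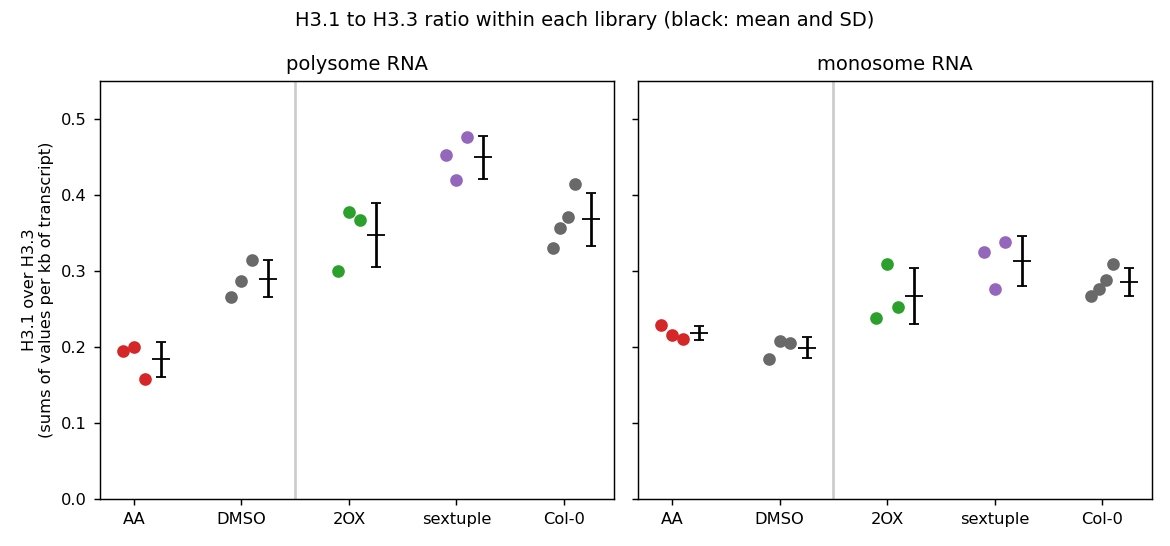
H3.1 over H3.3, the ratio of summed values per kilobase of transcript (vertical axis), for each library of AA, DMSO, 2OX, sextuple and Col-0, in polysome RNA (left) and monosome RNA (right); points are libraries and black bars are the mean and SD. AA polysomes lie between 0.157 and 0.200, all below the DMSO polysomes at 0.266 to 0.315.

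In the remaining classes, HTA10 and HIS1-3 passed the adjustment in polysomes. The canonical H2A gene HTA10 (AT1G51060) fell, with 2899, 3609 and 4219 in AA polysomes and 5471, 5453 and 6488 in DMSO polysomes (log2 change -0.71 ± 0.17 SE, adjusted p = 0.0124). The other canonical H2A genes had groups that did not overlap but did not pass the adjustment. HTA13 (AT3G20670) had 1445, 1512 and 1768 in AA polysomes and 1878, 2145 and 2025 in DMSO polysomes (log2 change -0.36, adjusted p = 0.122). HTA2 (AT4G27230) had 1291, 1489 and 1728 in AA and 1862, 2046 and 2141 in DMSO (log2 change -0.43, adjusted p = 0.0815). RAT5 (AT5G54640) was higher in AA, with 2827, 2623 and 2712 in AA and 2359, 2207 and 2024 in DMSO (log2 change 0.31, adjusted p = 0.155). The H2A.X gene GAMMA-H2AX (AT1G54690), with 2353, 2086 and 1626 in AA and 2811, 2470 and 2569 in DMSO, was also apart and lower (log2 change -0.39, adjusted p = 0.133). The H2B gene AT2G28720 was apart and higher, with 1693, 2197 and 3444 in AA and 1550, 1665 and 1683 in DMSO (log2 change 0.52, adjusted p = 0.13). H2AXA averaged 4504 ± 259 in AA and 5107 ± 876 in DMSO (SD, n = 3 each; log2 change -0.17, adjusted p = 0.505), and none of the H2A.X, H2A.W or H2B genes was called. HTA6 (AT5G59870), an H2A.W gene, had a log2 change of -0.51 (adjusted p = 0.0884), and HTB4 (AT5G59910), the H2B gene with the highest values, had 0.37 (adjusted p = 0.236). HIS1-3 (AT2G18050), an H1 variant known to be induced by drought, rose 2.06-fold, to 252, 422 and 283 in AA polysomes against 165, 147 and 140 in DMSO polysomes (log2 change 1.04 ± 0.23 SE, adjusted p = 0.00875). The 2 other H1 genes, AT1G06760 and AT2G30620, had log2 changes of 0.10 and -0.08.

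Leaving out 1 library moved the number of histone genes called in polysomes. It was 4 without DMSO replicate 3, when both H3.1 genes and HTA10 were no longer called, and 16 without AA replicate 3. Over all genes, 1748 rose and 2135 fell with every library kept. Without DMSO replicate 3 these counts were 1108 and 1136, and without AA replicate 3 they were 2428 and 2563. HTA11, HIS1-3, AT5G59690 and AT5G59970 were called in every case.

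In monosomes, 18 of the 40 histone genes rose after AA and none fell (22 had an unadjusted p under 0.05 in limma). Of all 21095 genes tested, 11.6% rose and 10.4% fell, and 7150 had an unadjusted p under 0.05. The median log2 change was 0.41 for histones and -0.02 for all genes. Genes with high values rose more often: in the 3 highest bins by mean value, 14 of the 24 histone genes rose (58.3%), against 22.7% of genes. The genes that rose included all 3 H3.3 genes, 3 of 5 H3.1 genes, 4 of 8 H4 genes and 4 of 9 H2B genes, but neither H2A.X gene.

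AT1G09200 (H3.1) rose to 3230, 2763 and 2368 in AA monosomes, against 1580, 1528 and 1723 in DMSO monosomes (log2 change 0.78 ± 0.13 SE, adjusted p = 0.00046). AT5G65360 (H3.1) had 1989, 2591 and 2202 in AA and 1340, 1428 and 1621 in DMSO (log2 change 0.62 ± 0.14 SE, adjusted p = 0.00316). In both H3.1 genes the groups were apart, in the direction opposite to that in polysomes. AT5G10400 (H3.1) rose by less (log2 change 0.51, adjusted p = 0.0211), and AT5G10390 did not pass the adjustment (log2 change 0.45, adjusted p = 0.115). Of the H4 genes, HIS4 (AT2G28740) rose most, with 568, 714 and 718 in AA monosomes and 302, 351 and 524 in DMSO monosomes (log2 change 0.80 ± 0.21 SE, adjusted p = 0.0105). AT5G59970 (H4) averaged 770 ± 31.7 in AA and 501 ± 141 in DMSO (SD, n = 3 each; log2 change 0.66, adjusted p = 0.0195). AT5G59690 (H4) did not pass the adjustment, with a log2 change of 0.19 (adjusted p = 0.307).

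The H3.3 gene AT5G10980 rose to 10683, 11659 and 9343 in AA monosomes, against 7351, 5947 and 6431 in DMSO monosomes (log2 change 0.68 ± 0.13 SE, adjusted p = 0.00125). AT4G40030 and AT4G40040 rose with log2 changes of 0.45 (adjusted p = 0.0128) and 0.41 (adjusted p = 0.0257). HTA6, for H2A.W, had the largest called rise of the histones, with 1720, 1619 and 1526 in AA and 926, 860 and 922 in DMSO (log2 change 0.84 ± 0.13 SE, adjusted p = 0.000167). No AA library of HTA6 came near a DMSO library. HTA13 (canonical H2A) rose with a log2 change of 0.58 (adjusted p = 0.00631), HTB4 (H2B) with 0.64 (adjusted p = 0.00187), HTA9 (H2A.Z) with 0.50 (adjusted p = 0.012) and the H1 gene AT1G06760 with 0.46 (adjusted p = 0.0319). H2AXA had -0.18 (adjusted p = 0.396). With quantile normalization, 10 of the 18 genes were called, among them 3 H3.1 genes and AT5G10980 but neither AT4G40030 nor AT4G40040. The number was 7 without DMSO replicate 1, 9 without DMSO replicate 2 and 9 without AA replicate 2. Over all genes, 2452 rose with every library kept, and 1821, 2104 and 1799 in the same order.

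**Figure D2:**
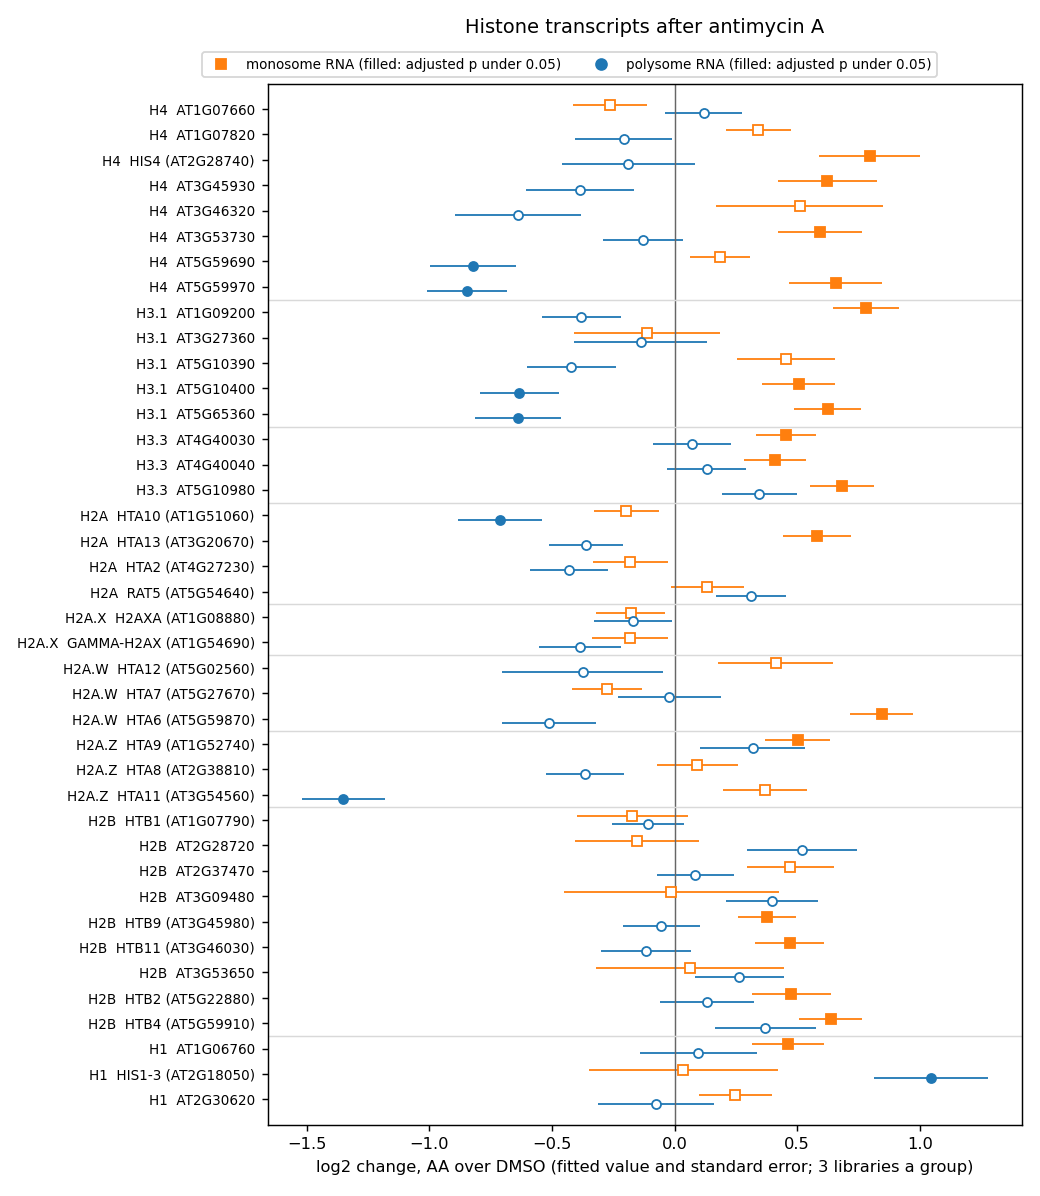
log2 change of each of the 40 histone genes in AA over DMSO (horizontal axis), in monosome RNA (squares) and polysome RNA (circles), by class; bars are standard errors and filled symbols passed the threshold. HTA11 has the lowest polysome change, -1.35, and all filled squares lie above 0.

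The change of the polysome to monosome ratio compares both fractions gene by gene and was tested as the interaction of treatment and fraction. It was negative for 31 of 40 histone genes, and 8 passed the threshold, all with a lower ratio in AA; 0 were higher. Of all 21769 genes tested, 0.786% had a lower ratio and 0.101% a higher one. The median log2 change was -0.39 for the histones and 0.04 for all genes. In the 3 highest bins by mean value, 7 of the 29 histone genes had a lower ratio (24.1%), against 1.55% of genes. The genes called were 3 for H3.1, 2 for H4, and 1 each for canonical H2A (HTA13), H2A.W (HTA6) and H2A.Z (HTA11); no H3.3, H2A.X, H2B or H1 gene was called.

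The log2 ratio of polysome to monosome value is given relative to the median gene of the same replicate. For HTA11 it was -1.38, -1.20 and -0.99 in AA and 0.72, 0.24 and 0.63 in DMSO, a change of -1.72 ± 0.25 SE (adjusted p = 0.00229). The transcript thus lay below the median gene in every AA replicate and above it in every DMSO replicate. For AT5G59970 (H4) it was -0.28, 0.01 and 0.02 in AA and 1.23, 1.83 and 1.20 in DMSO (change -1.50 ± 0.26 SE, adjusted p = 0.00705). For AT5G59690 (H4) it was 0.06, 0.04 and -0.32 in AA and 0.96, 0.81 and 1.03 in DMSO (change -1.01 ± 0.21 SE, adjusted p = 0.03). Both H4 transcripts were near the median gene in AA and above it in DMSO.

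Of the H3.1 genes, AT5G65360 had log2 ratios of 0.96, 0.92 and 0.61 in AA and 2.12, 2.10 and 2.07 in DMSO (change -1.26 ± 0.22 SE, adjusted p = 0.009). AT1G09200 had 0.86, 1.23 and 1.13 in AA and 2.07, 2.36 and 2.28 in DMSO (change -1.16 ± 0.21 SE, adjusted p = 0.00978). AT5G10400 had 0.14, 0.32 and 0.47 in AA and 1.25, 1.45 and 1.66 in DMSO (change -1.14 ± 0.21 SE, adjusted p = 0.0109). All 3 transcripts remained above the median gene in AA, by less than in DMSO. AT5G10390 had a change of -0.87 (adjusted p = 0.121) and AT3G27360 one of -0.03 (adjusted p = 0.988). HTA6 (H2A.W) had 0.54, 0.96 and 1.58 in AA and 2.16, 2.50 and 2.49 in DMSO (change -1.36 ± 0.23 SE, adjusted p = 0.00642). HTA13 (canonical H2A) changed by -0.94 ± 0.19 SE (adjusted p = 0.0233).

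The H3.3 genes had changes of -0.38 ± 0.19 for AT4G40030 (adjusted p = 0.441), -0.28 ± 0.20 for AT4G40040 (adjusted p = 0.626) and -0.34 ± 0.20 for AT5G10980 (SE; adjusted p = 0.544). Each was smaller than the changes of the 3 H3.1 genes called, and a difference in change between the classes was not tested. By class, the median change was -1.14 for H3.1, -0.99 for H4, -0.79 for H2A.W, -0.46 for H2A.Z, -0.38 for canonical H2A, -0.34 for H3.3, -0.33 for H1, -0.27 for H2B and -0.10 for H2A.X. H3.1 and H4 together had a median of -1.01, with 5 of 13 called, and the other 27 genes had a median of -0.33, with 3 called. HIS1-3 had a change of 1.01 ± 0.48 SE (adjusted p = 0.419).

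**Figure D3:**
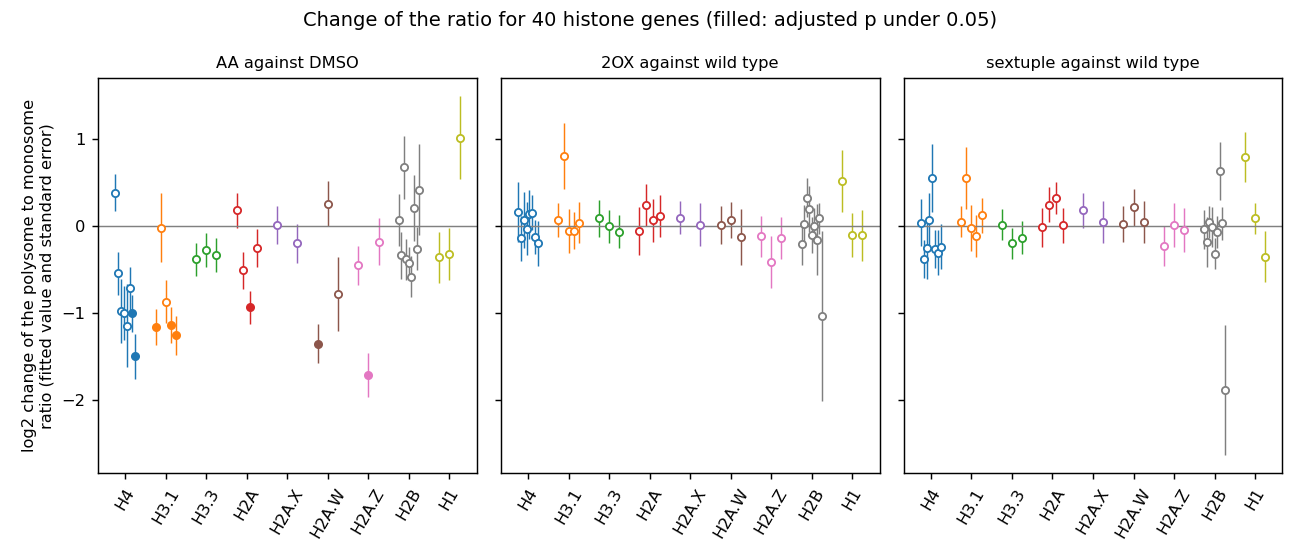
Change of the log2 polysome to monosome ratio (vertical axis) for each histone gene by class, in AA against DMSO, 2OX against wild type and the sextuple mutant against wild type; bars are standard errors and filled points passed the threshold. The 8 filled points are all in the AA panel, from -1.72 to -0.94.

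Histone mRNAs are short, so their ratios were also set beside 1302 other genes with proteins of 100 to 150 residues. The median log2 ratio of those genes was 0.44 ± 0.08 in AA and 0.41 ± 0.14 in DMSO (SD, n = 3 each). The median of H3.1 was 0.97 ± 0.14 in AA and 1.88 ± 0.35 in DMSO, that of H4 0.11 ± 0.25 in AA and 1.18 ± 0.14 in DMSO, and that of H3.3 1.11 ± 0.10 in AA and 1.45 ± 0.16 in DMSO. Measured from the short genes, H3.1 and H4 together were at -0.03 ± 0.26 in AA and 0.96 ± 0.15 in DMSO. These other genes, chosen by protein length and not by mRNA length or level, had similar ratios in both groups. The H3.1 and H4 medians were lower in AA. The part of mRNA length in the histone ratios was not tested.

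**Figure D4:**
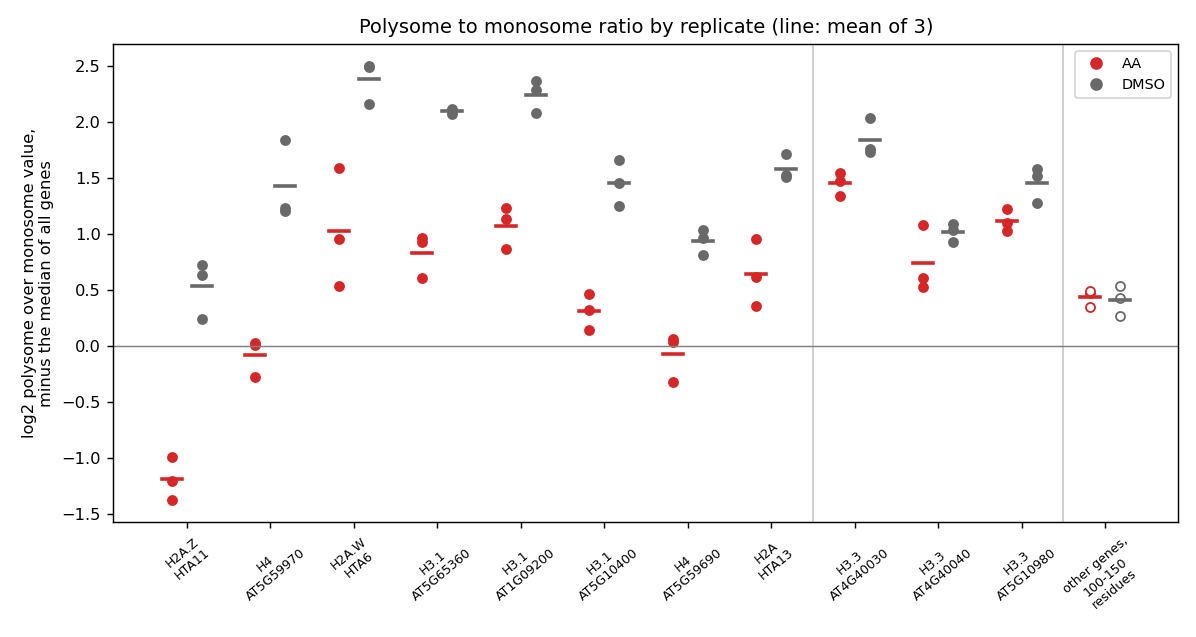
log2 polysome to monosome ratio, relative to the median gene (vertical axis), in each AA and DMSO replicate for the 8 genes called for the ratio, the 3 H3.3 genes, and the median of other genes with proteins of 100 to 150 residues; points are replicates and lines are means of 3. AA and DMSO are apart for each of the 8 genes, while the other short genes average 0.44 in AA and 0.41 in DMSO.

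The number of genes called for the ratio depended on single libraries, since each test rested on 3 replicates per group and fraction. For histones it was 3 without DMSO replicate 1, 1 without DMSO replicate 2, 3 without DMSO replicate 3 and 5 without AA replicate 1. Over all genes, lower ratios called fell as well, from 171 to 40, 22, 59 and 76 in the same order. HTA11 was called in every case.

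Genes of DNA replication and cell division were examined beside the histones. In AA polysomes, 8 of 20 replication genes and 11 of 18 mitosis genes fell and none rose. Of all genes tested there, 10.4% fell and 8.48% rose. CDC45 had the largest fall of the replication genes called (log2 change -1.85, adjusted p = 0.0458 in limma, and -1.05 without AA replicate 3). PCNA1, the sliding clamp of DNA polymerase, fell 2.00-fold (adjusted p = 0.00601). AUR2, a mitotic kinase, fell 4.03-fold (adjusted p = 0.000184), while CYCB1;1, a cyclin of G2 and M phase, had a log2 change of -0.38 (adjusted p = 0.383) and MCM2, a helicase subunit, -0.48 (adjusted p = 0.0975). In monosomes 5 of 20 replication genes fell and none rose, and 5 of 18 mitosis genes fell and 2 rose. Of all genes, 10.4% fell and 11.6% rose in monosomes, where 18 histone genes rose and none fell. PCNA1 also had a lower polysome to monosome ratio (log2 change -1.42, adjusted p = 0.0197 in limma). In all, 2 of the 20 replication genes and 5 of the 18 mitosis genes had a lower ratio, against 0.786% of all genes.

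Of 17 histone chaperone genes, 1 fell in polysomes (5.88%, against 10.4% of all genes). It was ASF1B, which hands H3 and H4 to the assembly factors (log2 change -0.74, adjusted p = 0.0359 in limma). FAS1, a subunit of CAF-1, which places H3.1 during replication, had -0.59 in polysomes (adjusted p = 0.0809) and fell in monosomes (log2 change -1.14, adjusted p = 0.00266). HIRA, a chaperone of H3.3, had -0.05 in polysomes. None of the 17 was called for the ratio by limma, 1 having an unadjusted p under 0.05, against 2581 of all 21769 genes. Meristem markers moved as well: 4 of 5 fell in AA polysomes and 2 of 4 tested fell in monosomes. Of all genes, 10.4% fell in each fraction, and 8.48% rose in polysomes and 11.6% in monosomes. STM averaged 79.9 in AA polysomes and 262 in DMSO polysomes, and 186 in AA monosomes and 114 in DMSO monosomes. KNAT1 averaged 303 in AA polysomes and 819 in DMSO polysomes. In polysomes none of 3 leaf markers was called, and of 3 root markers 1 rose and 1 fell. In monosomes 2 of 3 root markers rose (median log2 change 0.92) and 1 of 3 leaf markers rose (median 0.38). The part of the meristem, root and leaf markers in the histone changes was not tested.

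Upstream sequence was searched because the genes with a lower ratio shared no single class. The octamer CGCGGATC, known from plant histone promoters, was looked for on both strands in the 250 bases before the RefSeq start of each gene. It was present at 10 of 41 histone loci (24.4%) and at 37 of 27444 protein-coding genes (0.135%). It was found at 6 of the 8 histone genes called for the ratio, the exceptions being AT5G59970 and HTA11. Of the 10 histone genes with the octamer 6 were called, with a median change of -0.97, and of the 30 tested without it 2 were called, with a median of -0.34. The octamer was absent from all 10 H2B genes and present at 3 of 5 H3.1 genes, so a split by octamer is partly a split by class. Within H3.1 the median change was -1.16 for the 3 genes with it and -0.45 for the 2 without, within canonical H2A -0.73 for 2 with it and -0.04 for 2 without, and within H2A.W -1.36 for 1 with it and -0.27 for 2 without. Within H4 the order was the opposite, at -0.31 for 2 genes with it and -0.996 for 6 without. Within H3.3 the values were -0.28 for 1 with it and -0.36 for 2 without, and within H1 -0.36 for 1 with it and 0.34 for 2 without. The search was made after the calls were known, and a link between the octamer and the ratio was not tested. Windows around it are shown for the 6 called genes, with the copy farther from the start for AT1G09200, which has 2, and for the H4 gene AT1G07660, which was not called, 5′ to 3′ on the gene's strand in TAIR10.1. Capitals mark the octamer or its reverse complement.
AT1G09200, H3.1, chr1:2972397-2972444, minus strand: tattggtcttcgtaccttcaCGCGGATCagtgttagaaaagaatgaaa
AT5G10400, H3.1, chr5:3271050-3271097, minus strand: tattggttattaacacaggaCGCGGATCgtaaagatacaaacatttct
AT5G65360, H3.1, chr5:26120680-26120727, minus strand: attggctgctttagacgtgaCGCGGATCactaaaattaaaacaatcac
AT5G59690, H4, chr5:24051383-24051430, plus strand: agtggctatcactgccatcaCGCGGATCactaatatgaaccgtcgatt
HTA13, H2A, chr3:7229302-7229349, plus strand: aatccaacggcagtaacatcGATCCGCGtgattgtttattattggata
HTA6, H2A.W, chr5:24116309-24116356, minus strand: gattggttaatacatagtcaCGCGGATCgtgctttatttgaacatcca
AT1G07660, H4, chr1:2368687-2368734, plus strand: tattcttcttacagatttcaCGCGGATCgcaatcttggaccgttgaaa
The hexamer ACGTCA, another element of plant histone promoters, had a different distribution. It was present at 8 of 10 H2B genes, at 11 of 41 histone loci (26.8%) and at 7.69% of all protein-coding genes. The median change of the ratio was -0.34 for the 10 tested genes with it, 1 of them called, and -0.49 for the 30 without. The E2F-type motif TTTCCCGC was present at 0 of 41 loci (0.619% of all genes) and TTTGGCGC at 2 of 41 (0.361%). The 2 genes with TTTGGCGC, both for H4, had a median change of -1.08 and 0 were called. The 38 tested without it had a median of -0.37. The site II motif TGGGCC, also searched, was present at 15 of 41 loci (36.6%, against 13.7% of all genes). It was found at 1 of the 8 genes called for the ratio. The median change was -0.31 for the 14 tested genes with it and -0.58 for the 26 without.

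**Figure D5:**
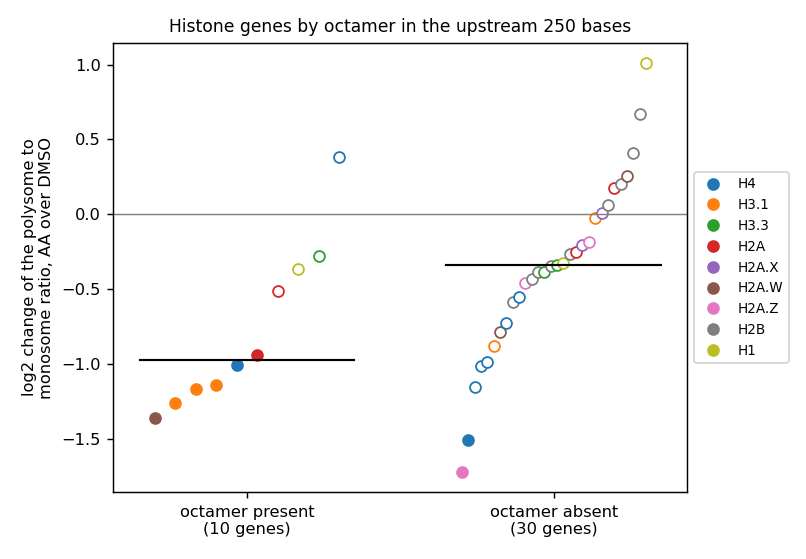
Change of the log2 polysome to monosome ratio in AA over DMSO (vertical axis) for histone genes with and without the octamer in the 250 bases upstream of the start, coloured by class; filled points passed the threshold and black lines are medians. The medians are -0.97 for the 10 genes with the octamer and -0.34 for the 30 without, and the difference was not tested.

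Coding introns divided the genes less clearly. Of 22 tested members without an intron in the coding sequence 5 were called for the ratio (median -0.57), and of 18 with one 3 were called (median -0.33).

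No histone gene was called by limma in 2OX or in the sextuple mutant, in either fraction or for the ratio. At an unadjusted p under 0.05 there were 1, 2 and 1 histone genes in 2OX for polysomes, monosomes and the ratio, and 2, 1 and 2 in the sextuple mutant. Of all genes, in the same order, 1145 of 19873, 962 of 19637 and 340 of 20597 reached it in 2OX. In the sextuple mutant 2015 of 20110, 1113 of 19892 and 739 of 20800 did. Few genes of any kind were called: in 2OX 0.171% in polysomes, 0.0866% in monosomes and 0.00486% for the ratio, and in the sextuple mutant 0.149% in polysomes, 0.101% in monosomes and 0% for the ratio. The median log2 changes of the histones were -0.08 in 2OX polysomes, -0.06 in 2OX monosomes and 0.00 for the 2OX ratio, and 0.07, 0.06 and 0.01 for the same measures in the sextuple mutant. The median standard error of a histone gene's change lay between 0.15 and 0.24. In the simulated data for AA against DMSO, 28% of log2 changes of 1 and 71.6% of changes of 2 were recovered in polysomes. Those shares come from a set of 20312 genes and were not worked out for histone genes. In 2OX polysomes the median standard error was 0.15 for histones and 0.21 for all genes. In sextuple polysomes it was 0.15 and 0.19. No simulation was run for 2OX or the sextuple mutant. Whether a change as large as that of HTA11 after AA would be called there was not tested. The H2B gene AT3G09480, which has low values, had 22.4, 47.8 and 35.1 in sextuple monosomes and 21.5, 2.67 and 5.76 in Col-0 monosomes (log2 change 2.07 ± 0.78 SE, adjusted p = 0.737). Every sextuple library was above every Col-0 library. Its polysome to monosome ratio had a log2 change of -1.89 ± 0.75 SE (adjusted p = 1.00).

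The H3.1 gene AT1G09200 had 3864, 5597 and 4541 in 2OX polysomes, and 5064, 4795 and 4900 in Col-0 polysomes of the same table (log2 change -0.09 ± 0.15 SE). It had 6846, 7262 and 6911 in sextuple polysomes, and 7214, 6010 and 5816 in Col-0 (log2 change 0.15 ± 0.13 SE). In both comparisons the groups overlapped. The H3.3 gene AT4G40030 had log2 changes of -0.06 ± 0.16 SE in 2OX polysomes and -0.12 ± 0.14 SE in sextuple polysomes. HTA11 had 571, 662 and 833 in 2OX polysomes and 863, 938 and 882 in Col-0 polysomes, which did not overlap but did not pass the adjustment (log2 change -0.39 ± 0.16 SE, adjusted p = 0.796). In sextuple polysomes HTA11 had a log2 change of -0.10 ± 0.17 SE.

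H3.1 relative to H3.3, per kilobase, was 0.300, 0.377 and 0.367 in 2OX polysomes and 0.330, 0.356 and 0.371 in Col-0, with overlap. In sextuple polysomes it was 0.452, 0.420 and 0.477, each above the 0.414, 0.330 and 0.371 in Col-0, while no H3.1 gene was called (log2 changes 0.11 to 0.24). Replication genes had a median log2 change of 0.33 in sextuple polysomes, with 5 of 20 at an unadjusted p under 0.05 and none past the adjustment in limma. Of all genes, 2015 of 20110 had an unadjusted p under 0.05 there.

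Among H1 genes in the sextuple mutant, HIS1-3 had 289, 266 and 321 in polysomes against 510, 489 and 447 in Col-0 (log2 change -0.72 ± 0.16 SE, adjusted p = 0.102). All sextuple libraries were below all Col-0 libraries, but the difference did not pass the adjustment. AT1G06760 had 1503, 1086 and 1039 in sextuple polysomes and 684, 561 and 1084 in Col-0, with overlap (log2 change 0.67 ± 0.21 SE, adjusted p = 0.291). The H3.1 gene AT3G27360 had 45.0, 77.8 and 93.2 in 2OX monosomes and 142, 141 and 129 in Col-0 (log2 change -0.98 ± 0.32 SE, adjusted p = 0.876).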

How the data were processed

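The values deposited by the authors are a signal per gene and library, namely scaled read numbers. They come in 6 tables, 1 for each fraction of the 3 comparisons. The fractions and comparisons were scaled separately, and depth in reads is unknown. The submitters' processing notes name Bowtie 0.12.2 and TAIR10. Fold changes, p-values, VIP scores and TE values in the tables are the authors' own comparisons and were not used; 3 further tables repeat the values per library and were not used. Samples were grouped by the labels.

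Genes that reached 10 in 3 or more libraries were fitted as log2(value + 1) with limma 3.58.1 in R 4.3.3, over the libraries of a comparison, without a replicate block. Fold changes are on that scale. The polysome to monosome ratio was tested as an interaction over both fractions. Two-sided p-values were adjusted by Benjamini-Hochberg over every gene tested, and called at 0.05. Replicates of a number deviated together only weakly across groups (r from -0.07 to 0.08), so the numbers were not taken as pairs. Polysome and monosome libraries of 1 replicate deviated together weakly and positively (r from 0.03 to 0.30); the printed ratios were formed within replicates, the ratio was fitted without a block, and the fit with each replicate as a block was an alternative. Tables and plots were made with Python 3.11.15, numpy 2.4.6, pandas 2.3.3 and matplotlib 3.10.9. Tested on simulated data for AA against DMSO, the fits recovered 28% of log2 changes of 1 and 71.6% of changes of 2 in polysomes, 40.6% and 78.1% in monosomes, and 22.7% and 63.3% for the ratio.

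Alternatives were a pseudocount of 10, no filter, quantile normalization, the replicate block and leaving out each library. Sequences are from RefSeq, TAIR10.1. The members, the gene lists and the tests were chosen with earlier results of these data known. Named are all H3.1, H3.3 and H1 genes, the highest and the most changed called member of each other class, each member called for the ratio, and of the other lists the most changed called gene together with CYCB1;1, PCNA1, MCM2, FAS1 and HIRA; other genes were named after their values were seen.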

Additional observations from a re-analysis of the deposited data

Results flagged for a closer look

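For 8 histone genes the change after AA differed between polysome and monosome RNA, by the interaction test in limma. The differences, polysome minus monosome on the log2 scale, were -1.01 for AT5G59690, -1.50 for AT5G59970, -1.16 for AT1G09200, -1.14 for AT5G10400, -1.26 for AT5G65360, -0.94 for HTA13, -1.36 for HTA6 and -1.72 for HTA11.

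In untreated Col-0, 1 of 4 replicates had a log2 polysome to monosome ratio of H2A.X of 1.59, apart from the other replicates at 1.36, 1.33 and 1.33. It was replicate 1, whose values come from the sextuple tables, which the authors scaled separately from the 2OX tables that hold the others. Replicate 1 was also the highest of the 4 for all histones (1.52) and for H3.3 (1.91). Measured from the other genes with proteins of 100 to 150 residues, H2A.X was at 0.98 in replicate 1, between the 0.87, 1.23 and 1.18 of replicates 2 to 4. Of 22 groups of 4 values screened, this was the 1 past the limit, and chance alone passes about 1 in 20 groups.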

How the results depend on the processing

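The 7 polysome calls after AA were 7 with a pseudocount of 10, 7 without a filter and 9 with quantile normalization, and 4 to 16 when 1 library was left out. The 18 monosome calls were 10 with quantile normalization, and 7 to 18 with 1 library left out. The 8 ratio calls were the same 8 genes with a pseudocount of 10, without a filter, with quantile normalization and with the replicate block, and 1 to 9 with 1 library left out. For AT5G59690 in AA monosomes quantile normalization gave -0.0099 in place of 0.19. With 1 library left out, HTA9 (AT1G52740) in sextuple polysomes ranged from -0.2989 to 0.0033 in place of -0.18, and AT5G59690 for the sextuple ratio from -0.575 to 0.0786 in place of -0.31, the highest values being without Col-0 replicate 1. None of these was called. The cause was not tested. In 2OX and the sextuple mutant the count of histone genes called was 0 in each fraction and for the ratio under every alternative run, except sextuple polysomes with the replicate block.

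With the replicate block, the AA calls were 8 in polysomes, 21 in monosomes and 8 for the ratio, and sextuple polysomes had 1 call in place of 0, AT1G06760. Replicate numbers are only numbers here. The block turned the sign of HTA13 (AT3G20670) in 2OX polysomes (0.0119 in place of -0.16), and of AT3G27360 (-0.0392 in place of 0.19) and H2AXA (-0.0172 in place of 0.15) in sextuple polysomes, none of them called. Over all genes it called 97 higher and 373 lower ratios after AA in place of 22 and 171. Count tests were not run, because whole reads were recovered in over 95% of low values for only 8 of 36 columns.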

Other observations

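H2A.X made up 16.8% to 23.3% of the H2A transcripts per kilobase in AA polysomes and 18.9% to 21.0% in DMSO polysomes, against 9.91% to 11.5% in polysomes of untreated Col-0. In monosomes it made up 13.5% to 15.4% in AA and 17.4% to 20.4% in DMSO, and 7.71% to 9.44% in untreated Col-0. The DMSO and untreated seedlings are wild type in separate tables, so handling before harvest and library batch cannot be told apart, and the difference was not tested.

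Of the histone genes outside the 41 loci, the centromeric H3 gene HTR12 (AT1G01370) fell in AA polysomes, where it averaged 135 ± 21.4, against 326 ± 22.4 in DMSO polysomes (SD, n = 3 each; log2 change -1.28, adjusted p = 0.0014, limma). In monosomes it averaged 225 ± 11.7 in AA and 282 ± 20.4 in DMSO (log2 change -0.32, adjusted p = 0.315).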
